A study of Mus musculus with 20 samples.

Results

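Collagen genes were compared between livers of *IMP2-2* tg and wt mice. *IMP2-2* (also p62) is a splice variant of the *IGF2* mRNA binding protein IMP2. Members were all genes whose annotated symbol has the form *Col*, a type number, *a* and a chain number, with 1 probe set per gene, the one of highest mean over all 20 arrays. This gave 42 of 18194 genes, of which 11 encode fibrillar chains, 6 basement membrane chains of type IV and 25 chains of other types. They are read by 82 probe sets, and 27 of the 42 genes have more than 1. RefSeq lists 44 mouse collagen genes of this form, and *Col28a1* and *Col6a6* were not analysed here. By the labels the arrays hold liver RNA of untreated mice aged 5 weeks on a C57Bl6J/DBA2 background, 10 transgenic for p62/*IMP2-2* and 10 wildtype. The series title calls the transgene liver-specific, and the sources used here do not give the promoter that drives it or the number of founder lines. Whole liver was read, so fewer cells of a type and less RNA per cell cannot be told apart.

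Collagens are the main proteins of the extracellular matrix, built from chains that wind into a triple helix. Fibrillar types I, III and V form the tensile fibres that accumulate in liver fibrosis, where hepatic stellate cells and portal fibroblasts are their main source. Type IV forms a sheet-like network in basement membranes: the chains of *Col4a1* and *Col4a2* make the trimer present in nearly all of them, and the *Col4a5* chain joins those of *Col4a3* and *Col4a4*, or that of *Col4a6*, in more specialised ones. Type VI forms beaded filaments, FACIT collagens sit on the surface of fibrils, and multiplexins such as types XV and XVIII lie at basement membranes.

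Type IV genes lie in head-to-head pairs, and their RefSeq start regions are shown because both members of 2 pairs are compared between genotypes in the paragraphs that follow. Each window runs from 250 bases before to 50 bases after the transcript start in GRCm38.p6, written 5′ to 3′ on the gene's own strand. Capitals mark the GC box GGGCGG and the CCAAT box, each also as its reverse complement. The *Col4a2* window is chr8:11312555-11312854 on the plus strand, that of *Col4a1* is chr8:11312777-11313076 on the minus strand, that of *Col4a5* is chrX:141475169-141475468 on the plus strand and that of *Col4a6* is chrX:141474027-141474326 on the minus strand.
Col4a2: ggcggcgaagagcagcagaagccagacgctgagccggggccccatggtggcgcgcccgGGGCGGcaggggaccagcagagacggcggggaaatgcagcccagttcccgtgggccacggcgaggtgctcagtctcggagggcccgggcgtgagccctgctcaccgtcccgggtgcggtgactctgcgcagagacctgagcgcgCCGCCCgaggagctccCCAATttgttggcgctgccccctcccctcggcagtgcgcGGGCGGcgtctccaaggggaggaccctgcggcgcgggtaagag
Col4a1: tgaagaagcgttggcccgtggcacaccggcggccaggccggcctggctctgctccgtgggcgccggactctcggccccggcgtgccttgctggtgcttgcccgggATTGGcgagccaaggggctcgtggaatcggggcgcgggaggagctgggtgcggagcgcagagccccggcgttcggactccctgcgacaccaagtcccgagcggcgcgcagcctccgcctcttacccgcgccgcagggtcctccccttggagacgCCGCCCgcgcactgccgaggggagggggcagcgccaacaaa
Col4a5: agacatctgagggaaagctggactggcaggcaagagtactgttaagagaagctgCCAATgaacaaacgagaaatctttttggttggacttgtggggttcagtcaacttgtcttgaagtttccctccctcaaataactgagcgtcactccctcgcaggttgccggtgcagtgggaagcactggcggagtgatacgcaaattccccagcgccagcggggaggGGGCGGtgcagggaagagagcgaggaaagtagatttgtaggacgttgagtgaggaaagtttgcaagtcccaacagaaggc
Col4a6: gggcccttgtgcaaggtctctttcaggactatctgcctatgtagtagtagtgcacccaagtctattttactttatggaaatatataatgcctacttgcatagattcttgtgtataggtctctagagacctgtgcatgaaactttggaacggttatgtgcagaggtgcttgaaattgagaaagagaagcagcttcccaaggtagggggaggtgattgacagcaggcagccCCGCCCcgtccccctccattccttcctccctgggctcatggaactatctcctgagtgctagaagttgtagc
The transcript starts used for the windows of *Col4a1* and *Col4a2* are 21 bases apart and their windows share 78 bases. Those used for *Col4a5* and *Col4a6* are 1343 bases apart and their windows share 0. For *Col4a1* and *Col4a5* these starts lie inside the gene spans given below, and the spans of *Col4a1* and *Col4a2* overlap. GC content was 73.7% and 74.0% in the *Col4a2* and *Col4a1* windows and 52.7% and 48.3% in those of *Col4a5* and *Col4a6*. The GC box occurred 3 times in the *Col4a2* window and 1 time in each of the others. That of *Col4a1* lies in the shared bases and is the same site as the last of *Col4a2*, so it is counted in both windows. The CCAAT box occurred 1 time in each window except that of *Col4a6*. RefSeq windows were at hand for 33 of the 42 genes, 36 windows in all. A GC box on either strand was in 22 of these 36 against 35.7% of all 32851 windows, a CCAAT box in 13 against 37.4%, and the TATA box TATAAA in 5 against 13.6%. None of the 5 type IV windows held TATAAA. These matches describe letters and not bound factors.

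Values are log2 signals after RMA, and a log2 fold change is tg minus wt, so that 1 unit is a doubling. The arrays had medians between 4.46 and 4.55. A pair of wt arrays was nearly identical (wt_1407_2 with wt_1420_6, whose log2 differences had an SD of 0.168), and so was another (wt_1407_5 with wt_1420_7, 0.172), whereas other wt pairs had 0.228 to 0.401. Each of these pairs counts as 1 profile in a mean ± SD, which leaves 8 wt profiles, while the limma fit used all 20 arrays. A tg and a wt array, tg_1386_9 and wt_1386_4, were closer still (0.155), and both were kept in the main fit. Array tg_1420_4 had the highest tg signal for 11 of the 25 collagen genes whose mean lay above 4.53, the median of all probe set means. The male-typical *Eif2s3y* was between 8.92 and 9.57 on every array, and *Xist* never exceeded 4.74.

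With every array counted on its own, livers of *IMP2-2* tg mice had more *Col4a5* mRNA than wt livers. No other collagen gene passed the test in this fit. With each near-identical wt pair averaged, 0 collagen genes passed, and *Col4a5* had a log2 fold change of 1.01 (limma adjusted p = 0.0896). The share of all genes called higher was then 0.896%, and 0.0989% were called lower. In the fit of every array, limma called 2.98% of all 18194 genes higher and 0.967% lower in tg livers at an adjusted p under 0.05. Of the 42 collagen genes, 1 was higher and 0 were lower, a share close to this background. At an unadjusted p under 0.05, 4 were higher (*Col4a5*, *Col4a2*, *Col4a1* and *Col3a1*) and 2 lower (*Col4a6* and *Col20a1*), or 9.52% and 4.76%, where all genes gave 13.0% and 12.2%. The log2 fold changes of the 42 ran from -0.25 to 1.05 with a median of -0.01, and the median of all genes was -0.02. Between genotypes, 0 of 42 separated without overlap, as 21 genes did upward and 1 downward among all 18194.

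**Figure D1:**
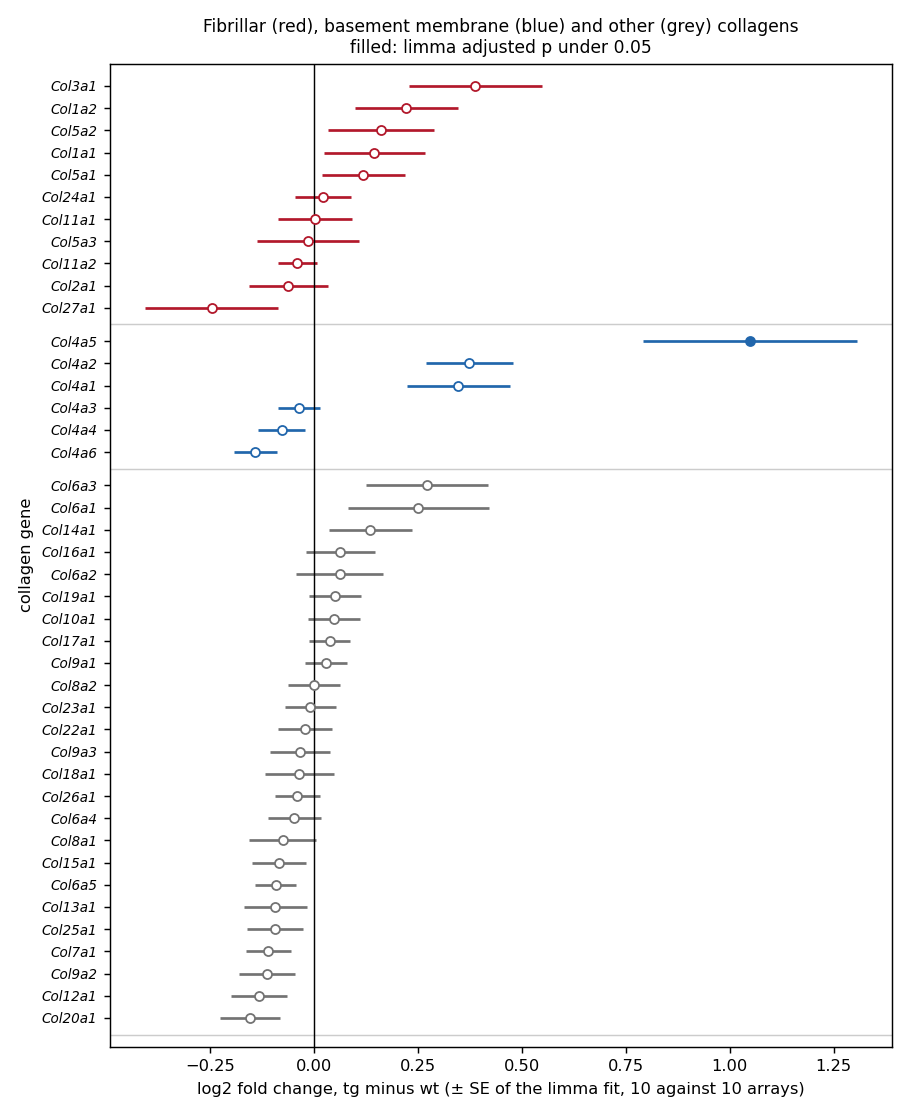
Log2 fold change (tg minus wt) of each of 42 collagen genes, with bars for ± the SE of the limma fit over 10 tg and 10 wt arrays, by class. The filled point is *Col4a5* at 1.05, the 1 gene past an adjusted p of 0.05, and the lowest is *Col27a1* at -0.25.

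By class, the 11 fibrillar genes had a median log2 fold change of 0.02, the 6 basement membrane genes 0.16 and the 25 others -0.03. The test called 0 fibrillar, 1 basement membrane and 0 other genes. At an unadjusted p under 0.05, 3 basement membrane genes were higher and 1 lower, 1 fibrillar gene was higher, and 1 of the others was lower. Among genes with a mean above 4.53 the medians were 0.15 over 7 fibrillar, 0.36 over 4 basement membrane and -0.03 over 14 other genes. A mean over these brighter genes was taken per array, relative to the wt mean. For the basement membrane class it was between 0.14 and 0.96 on tg arrays and -0.18 and 0.16 on wt arrays. Array tg_1386_9 alone of the tg arrays lay below the highest wt array. This mean covers *Col4a1*, *Col4a2*, *Col4a5* and *Col4a6*, so the 1 called gene is part of it, and a mean without *Col4a5* was not tested. On tg_1423_2-8_1, *Col4a5* had its highest tg value (7.93), and *Col4a1* (7.75) and *Col4a2* (7.45) their lowest. For fibrillar genes the class mean was -0.18 to 0.71 on tg and -0.32 to 0.18 on wt arrays, and for the others -0.14 to 0.17 and -0.16 to 0.12. In all 3 classes the highest array was tg_1420_4. On this array the 3′ signal of the control transcripts exceeded the 5′ signal by 0.79, within the 0.41 to 0.95 of the wt arrays. The tg arrays, this one included, had 0.456 to 0.815, so it lay near their upper end.

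**Figure D2:**
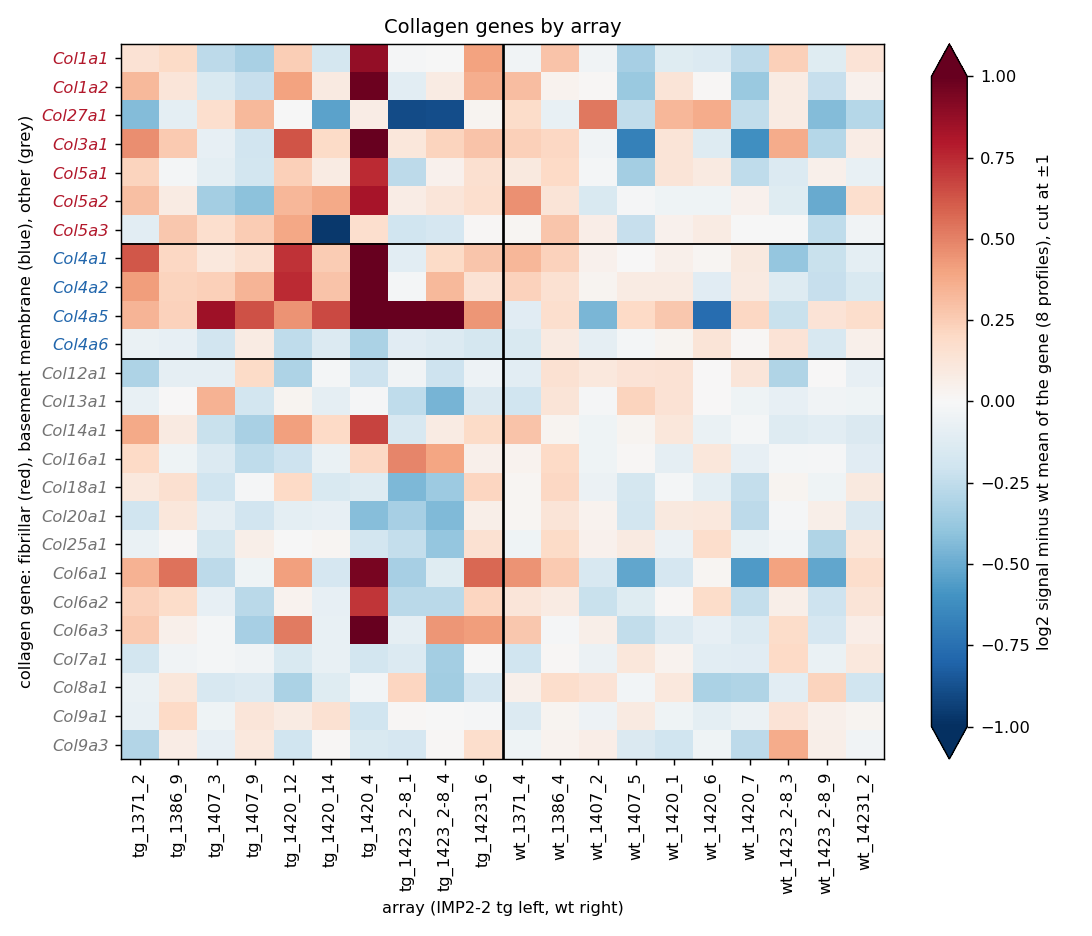
Log2 signal minus the wt mean of each gene (8 wt profiles) for the 25 collagen genes above the median signal, 1 column per array, tg left and wt right, with the colour scale stopped at ±1. *Col4a5* is red on all 10 tg arrays, and tg_1420_4 stands out through *Col1a2*, *Col3a1*, *Col4a1*, *Col4a2* and *Col6a3* together.

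*Col4a5* lies at chrX:141475370-141689236 in GRCm38.p6. On its brighter probe set, which stands for the gene, the tg arrays ran from 5.84 over a median of 6.25 to 7.93 and the wt arrays from 4.84 over 5.76 to 5.87. All tg arrays but tg_1386_9 lay above every wt array, and all 10 lay above the wt median. Its 3 highest values were those of tg_1423_2-8_1 (7.93), tg_1423_2-8_4 (7.83) and tg_1420_4 (7.53), and the other 7 tg arrays reached 6.45 at most. Tg livers had a mean ± SD of 6.61 ± 0.82 (n = 10) and wt livers of 5.60 ± 0.30 (n = 8). In limma the log2 fold change was 1.05 (SE 0.257, adjusted p = 0.0352), or 2.07-fold. Its second probe set was also higher, with 0.34 (SE 0.079, adjusted p = 0.0267).

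The call for *Col4a5* depended on which arrays were used. With each near-identical wt pair averaged the log2 fold change was 1.01 (limma adjusted p = 0.0896), without tg_1420_4 and both tg_1423_2-8 arrays it was 0.56 (adjusted p = 0.0854), and without the 4 arrays whose names hold tg_1423_2-8 or wt_1423_2-8 it was 0.73 (adjusted p = 0.153). It was called in 12 of 20 fits without 1 array and lost without tg_1407_3, tg_1420_4, tg_1423_2-8_1, tg_1423_2-8_4, wt_1407_2, wt_1407_5, wt_1420_6 or wt_1423_2-8_3, with values of 0.90 to 1.14 and adjusted p of 0.0161 to 0.0723 over the 20 fits. The call of the second probe set was lost without tg_1420_4, tg_1423_2-8_1 or wt_1420_6, with near-identical wt pairs averaged (0.34, adjusted p = 0.0734), without the 3 highest tg arrays (0.22, adjusted p = 0.107) and without the 4 arrays of that number (0.27, adjusted p = 0.156). Within each of the 6 numbers that sample names share between genotypes, *Col4a5* was higher in tg livers, by 0.07 to 2.31. These 6 are not independent, because the near-identical wt arrays carry different numbers. With the *Xist* signal as a covariate, an alternative chosen after the data were seen, the log2 fold change was 1.04 (limma adjusted p = 0.0447). Without tg_1386_9 and wt_1386_4, the close tg and wt arrays, it was 1.16 (limma adjusted p = 0.0233), where 4% of all genes were called higher.

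*Col4a6*, its neighbour, encodes a chain found in the basement membranes of skin and smooth muscle. Its tg arrays ran from 4.53 over 4.71 to 4.93 and its wt arrays from 4.68 over 4.87 to 4.98. In tg livers 4 of 10 arrays lay below every wt array and the rest overlapped. The log2 fold change was -0.14 (SE 0.052, limma adjusted p = 0.132), a difference that did not pass the test and has the opposite sign to that of *Col4a5*. *Col4a3* and *Col4a4*, the partners of *Col4a5* in kidney, had -0.03 (SE 0.051) and -0.08 (SE 0.057), from signals under 4.53 in both genotypes, too dim to read a lack of change.

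*Col4a2* lies at chr8:11312805-11449287 and encodes the second chain of the common basement membrane trimer. Its tg arrays ran from 7.45 over 7.77 to 8.55 and its wt arrays from 7.23 over 7.52 to 7.69. In tg livers 7 of 10 arrays lay above every wt array. The log2 fold change was 0.37 (SE 0.105, limma adjusted p = 0.0580), just short of the threshold, and it was called without tg_1386_9, tg_1423_2-8_1 or tg_14231_6. *Col4a1*, at chr8:11198423-11312889, ran from 7.75 over 8.08 to 8.98 in tg and from 7.46 over 7.88 to 8.18 in wt livers, with 3 tg arrays above all wt arrays. Its log2 fold change was 0.35 (SE 0.123, adjusted p = 0.118), and its second probe set gave 0.24 (SE 0.085). With the label number as a replicate block, *Col4a1* (adjusted p = 0.0474) and *Col4a2* (adjusted p = 0.0326) were called beside *Col4a5*, so that the paired fit called 3 collagen genes higher where the unpaired one called 1, while the share of all genes called higher went from 2.98% to 5.39%. Within label numbers, which are not independent, *Col4a2* was higher in tg livers in 6 of 6 (0.06 to 0.69) and *Col4a1* in 5 of 6 (-0.02 to 0.65). Without tg_1420_4 the log2 fold changes were 0.30 for *Col4a2* and 0.26 for *Col4a1*. With near-identical wt pairs averaged, the limma adjusted p was 0.114 for *Col4a2* and 0.187 for *Col4a1*. After renewed quantile normalization it was 0.101 and 0.209, and without the 4 arrays named tg_1423_2-8 or wt_1423_2-8 it was 0.167 and 0.241.

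**Figure D3:**
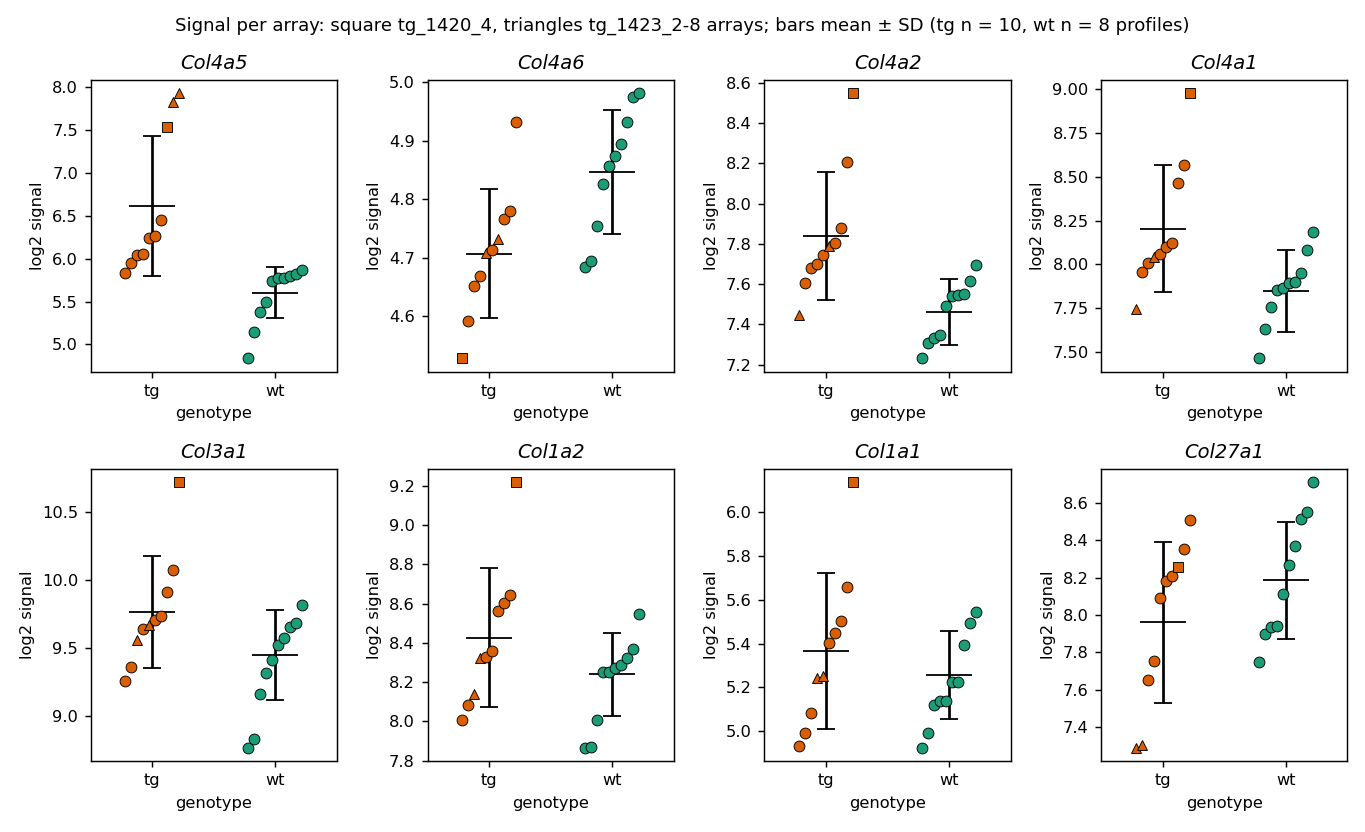
Log2 signal of 8 collagen genes on each array, tg against wt, with bars for mean ± SD (10 tg arrays, 8 wt profiles), each panel on its own scale. Squares are tg_1420_4 and triangles the tg_1423_2-8 arrays, which hold the 3 highest *Col4a5* values, and the triangles also hold the 2 lowest of *Col27a1*.

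Among the fibrillar genes, those of types I and III, of which scar tissue is made, had positive differences that did not pass the test. *Col3a1* ran from 9.26 over 9.69 to 10.72 in tg and from 8.77 over 9.47 to 9.82 in wt livers. The genotypes overlapped except for 3 tg arrays above and 3 wt arrays below. Among the latter were wt_1407_5 (8.77) and wt_1420_7 (8.83), a near-identical pair that counts as 1 profile. Tg livers averaged 9.76, and wt livers 9.38 over 10 arrays or 9.45 over 8 profiles. Within label numbers, which are not independent, tg livers were higher in 6 of 6 (0.05 to 0.90). The log2 fold change was 0.39 (SE 0.159, limma adjusted p = 0.171), and a second probe set gave 0.52 (SE 0.209). *Col1a2*, which encodes the second chain of type I, ran from 8.01 over 8.34 to 9.22 in tg and from 7.87 over 8.26 to 8.55 in wt livers, a difference of 0.22 (SE 0.123, adjusted p = 0.315), and a second probe set gave 0.40 (SE 0.187). *Col1a1*, the main type I chain, ran from 4.93 over 5.33 to 6.14 and from 4.93 over 5.18 to 5.55, a difference of 0.15 (SE 0.121, adjusted p = 0.524). For these 3 genes the top tg value was that of tg_1420_4. Without that array the differences were 0.28 for *Col3a1*, 0.14 for *Col1a2* and 0.06 for *Col1a1*.

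*Col5a1* and *Col5a2*, whose chains start and limit fibril growth, had 0.12 (SE 0.100) and 0.16 (SE 0.127), and *Col5a3* had -0.01 (SE 0.123). Without tg_1420_4 those of *Col5a1* and *Col5a2* were 0.047 and 0.086. *Col27a1*, a fibrillar collagen of cartilage, had the most negative difference, -0.25 (SE 0.159, limma adjusted p = 0.398). Its tg arrays ran from 7.29 over 8.14 to 8.51 and its wt arrays from 7.75 over 8.19 to 8.71, with both tg_1423_2-8 arrays lowest. *Col2a1*, *Col11a1*, *Col11a2* and *Col24a1*, mostly genes of cartilage and bone, had means under 4.53 and differences between -0.06 and 0.02.

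The type VI chains of *Col6a1*, *Col6a2* and *Col6a3*, which form 1 trimer, had differences of 0.25 (SE 0.169), 0.06 (SE 0.104) and 0.27 (SE 0.147), with limma adjusted p from 0.300 to 0.774. *Col6a3* ran from 6.01 over 6.50 to 7.68 in tg and from 6.09 over 6.29 to 6.61 in wt livers, and 4 tg arrays lay above all wt arrays. Without tg_1420_4 its difference was 0.15, that of *Col6a1* 0.17 and that of *Col6a2* -0.01. Among the FACIT genes *Col14a1*, a collagen of fibroblasts, had 0.14 (SE 0.101, and 0.076 without tg_1420_4), *Col16a1* 0.06 (SE 0.083), *Col12a1*, a collagen of dense connective tissue, -0.13 (SE 0.067, adjusted p = 0.270) and *Col20a1* -0.15 (SE 0.072, adjusted p = 0.233). The 3 further *Col12a1* probe sets, all with means under 4.53, gave 0.14, -0.15 and 0.02, and the 3 further *Col20a1* probe sets gave 0.04, -0.03 and -0.15. *Col7a1*, the anchoring fibril collagen of skin, had -0.11 (SE 0.054), *Col8a1*, a network collagen of vessels, -0.08 (SE 0.080), and the transmembrane collagens *Col13a1* and *Col25a1* -0.09 each (SE 0.076 and 0.068). *Col9a1* and *Col9a3* had 0.03 and -0.03, and the 11 genes of the other types with means under 4.53 lay between -0.11 and 0.05.

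*Col18a1*, whose product carries the endostatin fragment and is made by hepatocytes, at chr10:77052178-77166530, gave different results in its 2 probe sets, whose means over all arrays both round to 10.68. The first, of suffix _s_at and marginally the higher, so the one used for the gene, ran from 10.27 over 10.66 to 10.94 in tg and from 10.49 over 10.70 to 10.93 in wt livers, a difference of -0.03 (SE 0.082, limma adjusted p = 0.848). The second ran from 10.47 over 10.78 to 11.16 in tg and from 10.29 over 10.51 to 10.79 in wt livers and was higher by 0.33 (SE 0.080, adjusted p = 0.0344). This call was lost with near-identical wt pairs averaged (0.31, adjusted p = 0.0911), without tg_1420_4 and both tg_1423_2-8 arrays (0.23, adjusted p = 0.242), without the 4 arrays named tg_1423_2-8 or wt_1423_2-8 (0.24, adjusted p = 0.24) and with array weights (0.27, adjusted p = 0.0577). It was also lost in 11 of 20 fits without 1 array, those without tg_1407_3, tg_1420_4, tg_1423_2-8_1, tg_1423_2-8_4, wt_1407_2, wt_1407_5, wt_1420_1, wt_1420_6, wt_1420_7, wt_1423_2-8_3 or wt_1423_2-8_9, with adjusted p of 0.0165 to 0.069 over the 20.

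The second minus the first probe set of *Col18a1* was -0.19, 0.04 and 0.74 (lowest, median, highest) on tg arrays and -0.34, -0.16 and -0.09 on wt arrays. In tg livers 7 of 10 arrays lay above every wt array, with tg_1420_4 and both tg_1423_2-8 arrays highest. It averaged 0.18 ± 0.36 (SD, n = 10) over tg and -0.20 ± 0.10 (SD, n = 8) over wt profiles, a difference of 0.37 (exact two-sided permutation test over 43758 regroupings, p = 0.0104). This contrast was chosen after its values were seen. RefSeq gives 2 start regions for *Col18a1*, and the sources used here do not give which transcripts each probe set reads. *Col15a1*, the other multiplexin, had -0.08 (SE 0.065) at signals under 4.53.

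**Figure D4:**
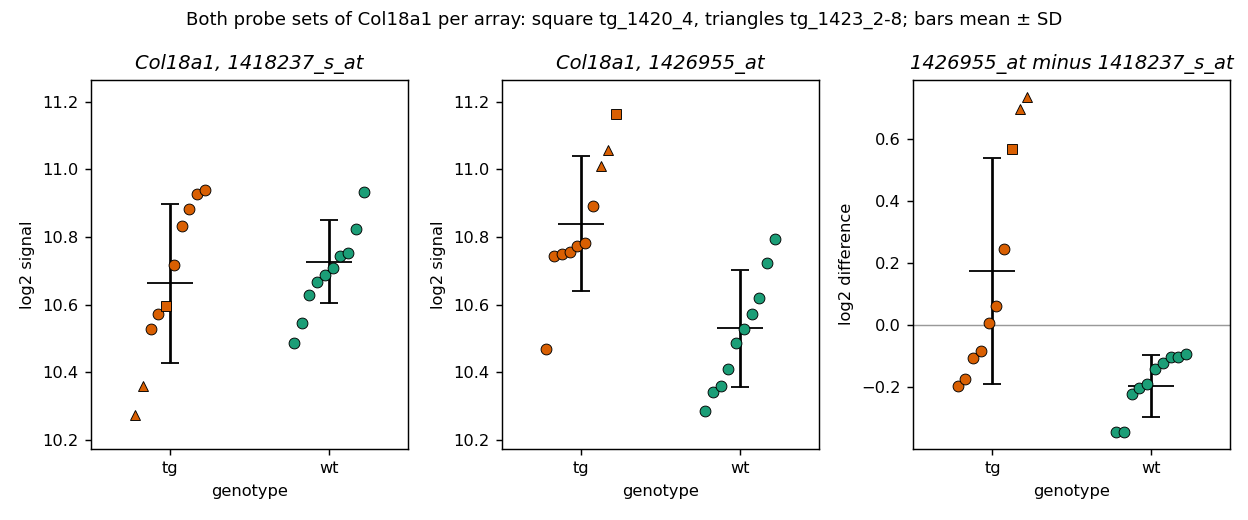
Log2 signal of both *Col18a1* probe sets on each array and their difference, tg against wt, with bars for mean ± SD (10 tg arrays, 8 wt profiles). The left panel shows the first probe set (suffix _s_at), in which the genotypes overlap apart from 2 tg arrays below and 1 above all wt arrays, and in the right panel, the second minus the first, 7 tg arrays lie above the highest wt value of -0.09.

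Several chains of the same trimer or fibril varied together between livers of the same genotype. In the 18 profiles with genotype means removed, 10 pairs of genes were compared by Pearson's r and Spearman's rho, each with 100000 two-sided permutations within genotype. *Col4a1* and *Col4a2* had r = 0.93 (permutation p = 1e-05, the smallest these permutations give, adjusted p = 7.5e-05) and rho = 0.81 (p = 0.00014, adjusted p = 0.00035). *Col1a1* with *Col3a1* had r = 0.88 (permutation p = 3e-05, adjusted p = 7.5e-05) and rho = 0.85 (p = 3e-05, adjusted p = 2e-04). *Col6a1* with *Col6a2* had r = 0.87 (permutation p = 2e-05, adjusted p = 7.5e-05) and rho = 0.81 (p = 0.00012, adjusted p = 0.00035), and *Col1a1* with *Col1a2* had r = 0.85 (p = 9e-05, adjusted p = 0.00018) and rho = 0.81 (p = 0.00021, adjusted p = 0.00042). Without the 2 profiles farthest from the median of the first gene, r was 0.83, 0.73, 0.84 and 0.67 in this order, each with an adjusted p under 0.05.

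The same-fibril pairs *Col3a1* with *Col5a2* (r = 0.74, permutation p = 0.00137, rho = 0.56, p = 0.0195) and *Col5a1* with *Col5a2* (r = 0.66, p = 0.00715, rho = 0.58, p = 0.0163) had lower values, as had *Col6a2* with *Col6a3* (r = 0.79, p = 0.0027, rho = 0.57, p = 0.0322). Without the 2 farthest profiles these r were 0.77, 0.50 and 0.43, and the latter 2 no longer passed. *Col6a2* with *Col6a3* kept its call without tg_1420_4 and both tg_1423_2-8 arrays (r = 0.75, permutation adjusted p = 0.00798, rho = 0.71, adjusted p = 0.0154). With the label number removed over all 20 arrays (replicate block), rho no longer passed for *Col6a1* with *Col6a2* (0.42, permutation adjusted p = 0.108), *Col6a2* with *Col6a3* (0.44, adjusted p = 0.106), *Col3a1* with *Col5a2* (0.39, adjusted p = 0.135) and *Col5a1* with *Col5a2* (0.14, adjusted p = 0.574). Across classes, *Col3a1* with *Col6a1* reached r = 0.83 (permutation p = 3e-05) and rho = 0.86 (p = 4e-05), and 0.73 without 2 profiles. *Col1a1* with *Col4a1* had r = 0.57 (permutation p = 0.0276, adjusted p = 0.0307) and rho = 0.47 (p = 0.0606). With genotype means alone removed, r fell to 0.24 without tg_1420_4 and to 0.20 without 2 profiles, and no longer passed. Over all 20 arrays with the label number removed as well (replicate block), r was 0.82 and rho 0.76 (permutation adjusted p = 0.000633 and 0.00048). *Col15a1* with *Col18a1* had r = -0.28 (permutation p = 0.304) and rho = -0.27 (p = 0.29). All signals of an array share 1 RNA sample and 1 scan.

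**Figure D5:**
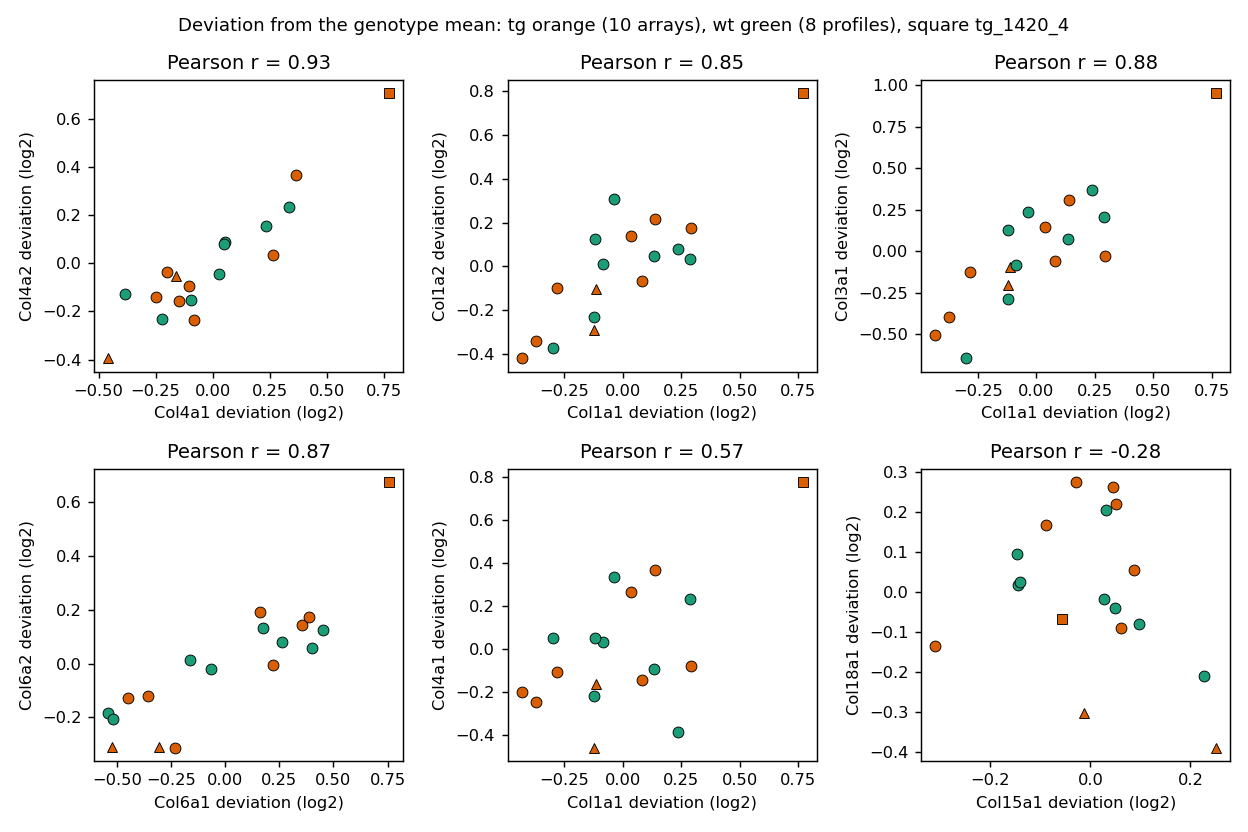
Deviation of each profile from its genotype mean (log2) for 6 gene pairs, tg orange (10 arrays) and wt green (8 profiles). Points of *Col4a1* and *Col4a2* lie along a line (r = 0.93), and in the panel of *Col1a1* and *Col4a1* (r = 0.57) the square, tg_1420_4, lies far from all others.

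Genes that act on collagens were compared by lists, to be read against all genes, of which 2.98% were called higher and 13.0% were higher and 12.2% lower at an unadjusted p under 0.05. Of 27 measured genes for chain folding, modification and crosslinking, 0 were called in either direction by limma, with 3 higher and 2 lower at an unadjusted p under 0.05 and a median of 0.03. Of 14 degradation genes 2 were higher: *Ctss*, the lysosomal cathepsin S of macrophages (0.62, SE 0.127, adjusted p = 0.0143), and *Mmp2*, a gelatinase that cleaves type IV collagen (0.32, SE 0.086, adjusted p = 0.0493). *Cd44*, a hyaluronan and collagen receptor, was the 1 called of 9 receptor genes (0.72, SE 0.137, adjusted p = 0.00993). *Tgfbr1*, the type I receptor of the fibrogenic cytokine TGF-beta, was the 1 called of 15 signalling genes (0.38, SE 0.087, adjusted p = 0.0262). Of 27 matrix partners, *Agrn*, the basement membrane proteoglycan agrin, was called (0.23, SE 0.062, adjusted p = 0.0492), like *Mmp2* just under the threshold. At an unadjusted p under 0.05, 8 were higher and 3 lower, among the latter *Hspg2* (-0.19, SE 0.063, limma adjusted p = 0.0990). The list medians were 0.00, -0.05, 0.05 and 0.04 in this order.

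Markers of liver cell types, among them the stellate cells and fibroblasts that make collagen, were compared in the same way, and also only over all 20 arrays. Of 12 hepatic stellate cell markers and 10 markers of myofibroblasts and portal fibroblasts, limma called 0, with 1 in each list higher and 0 lower at an unadjusted p under 0.05. Their mean levels were 6.77 to 7.25 in tg and 6.80 to 7.12 in wt livers for stellate cells, and 4.67 to 5.11 and 4.67 to 4.97 for the latter. Array tg_1420_4 had the highest mean of all 20 in both lists (7.25 and 5.11), and also in the lists of 4 measured cholangiocyte markers (4.73), of folding genes (6.05), of degradation genes (5.29), of fibrogenic signals (6.24) and of matrix partners (6.31). Of 9 endothelial markers *Lyve1*, the hyaluronan receptor of sinusoidal endothelium, was higher (0.995, SE 0.219, adjusted p = 0.0214), with a list median of 0.06 and mean levels of 6.27 to 6.74 in tg and 6.04 to 6.60 in wt livers. Of 7 macrophage markers 5 were higher, with a median of 0.55 and mean levels of 7.91 to 8.69 in tg and 7.59 to 8.20 in wt livers. Among them were *Cd5l* (0.79, SE 0.152, adjusted p = 0.0106), which encodes a scavenger protein secreted by macrophages, and *Clec4f*, a lectin of Kupffer cells (0.60, SE 0.113, adjusted p = 0.00924). Of 4 cholangiocyte and 5 hepatocyte markers 0 were called, with 0 and 1 higher at an unadjusted p under 0.05 and medians of 0.06 and 0.03. The part of these cells in the signals of *Col4a5* and the other collagen genes was not tested.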

How the data were processed

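RNA of 10 *IMP2-2* tg and 10 wt livers was hybridised to Affymetrix Mouse Genome arrays, and the authors normalized the scans by RMA (the sources used here give no version). The deposited log2 values of 45101 probe sets were used as they are, with 0 columns left without a sample, and precision is limited by how many mice there were. Of the probe sets 34958 carry 1 symbol in the array annotation, 932 several and 9211 none, and a RefSeq table for GRCm38.p6 held 34754 of the single symbols. Genes were named from probe sets with 1 symbol. The collagen genes, classes and lists were chosen with earlier results of these data known.

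Genotype was the only term of a limma 3.58.1 fit in R 4.3.3 on all 20 arrays, with Benjamini-Hochberg adjustment over all probe sets and 0.05 as the threshold. SEs are those of the moderated fit. Named members were those past the threshold, a set of liver collagens whatever their result, and the 8 largest rises and 8 largest falls among members with a mean above 4.53 in either genotype. The functions were tested on simulated data with known changes. Python 3.11.15 with numpy 2.4.6, pandas 2.3.3 and matplotlib 3.10.9 served for sequences and plots.

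Sample names carry 6 numbers found in both genotypes, which the sources used here do not explain. After genotype means were removed, arrays sharing a number across genotypes correlated by 0.184 to 0.404, highest for the own number in 5 of 6, so fits with the number as a block stand beside those it changes. Other alternatives were scalings of the arrays, a filter on dim probe sets, empirical Bayes settings, array weights, averaged near-identical arrays, arrays left out and other probe sets.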

Additional observations from a re-analysis of the deposited data

Results flagged for a closer look

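Among 48 groups of arrays (24 genes and probe sets, each in tg and in wt livers), 5 held an array whose gap to the nearest other array took up an unusually large part of the group's range. Chance gives about 1 in 20 groups, but these groups share arrays and are not independent. Of the 5, 4 are of the same array, tg_1420_4. In tg livers, array tg_1420_4 was at 9.22 for *Col1a2*, with 8.64 for the next array (gap over range 0.475), at 6.69 against 6.18 for *Col5a1* (0.507), at 7.45 against 6.97 for *Col6a2* (0.489) and at 7.68 against 6.86 for *Col6a3* (0.494). Array tg_1423_2-8_4 was lowest for *Col7a1*, at 4.41 against 4.56 (0.467), at a signal close to the median of all probe sets.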

How the results depend on the processing

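The 1 collagen gene called higher, *Col4a5*, became 2 with only probe sets above the median signal, with array weights and with the label number as a random block (*Col4a2* joined it), and 3 in the paired fit with the number as a replicate block term. It was also 2 with the probe set of largest variance or without probe sets of suffix _s_at or _x_at, where *Col18a1* joined it and the count of other collagens rose from 0 to 1. It was 0 with near-identical wt arrays averaged, without tg_1420_4 and both tg_1423_2-8 arrays (3 tg arrays) and without the 4 arrays named tg_1423_2-8 or wt_1423_2-8. Counts for the basement membrane class moved the same way, to 2, 3 and 0. Without 1 array both counts ran from 0 to 2, being 0 without tg_1407_3, tg_1420_4, tg_1423_2-8_4, wt_1407_2, wt_1407_5, wt_1420_6 or wt_1423_2-8_3 and 2 without tg_1386_9 or tg_14231_6. With the dim probe sets left out, the class medians were 0.145 for fibrillar and 0.361 for basement membrane genes. With dim probe sets kept, counting *Col15a1* and *Col18a1* among the basement membrane genes moved their median from 0.16 to -0.034. The count of collagen genes lower was 0 in every fit run.

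Over all genes, the share called higher ran from 0.253% without these 4 arrays to 6.17% without dim probe sets. Genes called lower were 314 of 18194 after renewed quantile normalization and 97 with arrays centred on their medians. The median of all genes was -0.0213 and 0.00159 with these scalings, against -0.0221 in the main fit. Signs turned only for differences that did not pass the test, except for *Col18a1*, whose other probe set passed at 0.33. *Col18a1* was 0.011 with array weights, 0.074 without the 3 tg arrays and 0.058 without the 4 arrays, and without 1 array it ran from -0.065 to 0.0088, above 0 without tg_1423_2-8_1. Without 1 array *Col6a2* ran from -0.012 to 0.097, below 0 without tg_1420_4. *Col12a1* was 0.14 with the probe set of largest variance and *Col20a1* 0.040 without the suffixes. The cause was not tested, beyond the change of probe set itself.

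Of the correlations, *Col5a1* with *Col5a2* lost its call with the replicate block (r = 0.366), without the 2 farthest profiles (0.504), without the 3 tg arrays (0.505) and without tg_1420_4 (0.45). *Col6a2* with *Col6a3* lost it without the 2 farthest profiles (0.429) and without tg_1420_4 (0.532), and *Col1a1* with *Col4a1* without the 2 farthest (0.202), the 3 arrays (0.236) and tg_1420_4 (0.235). Leaving out tg_1420_4 alone in the correlations and the *Xist* covariate were alternatives chosen after seeing the data. Among the collagen genes and Pearson correlations, the block changed no other call than those given here and for *Col4a1* and *Col4a2*, and it ended the Spearman calls of 4 pairs and added that of *Col1a1* with *Col4a1* (rho = 0.761). For collagen genes with a mean under 4.53 the signal is too dim to read a lack of change.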
